A study of Mus musculus with 8 samples.

Results

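Oxidant defense genes of the NRF2 type were followed in WT and cancer cells of intestinal organoids that were grown apart or together. The 10 genes are Nqo1, Gclc, Gclm, Txnrd1, Srxn1, Slc7a11, Hmox1, Prdx1, Gpx1 and Gpx2, and they were taken by their symbols from a table of 13420 mouse genes. All 10 were in the table, and all 10 were among the 5264 genes that had enough reads to be tested. WT organoids of the small intestine carried mTmG on a C57BL/6 background, a reporter that gives membrane tdTomato. Cancer organoids carried Villin-CreERT2 together with engineered alleles that include Apc fl/fl and Tr53 fl/R172H on a C57BL/6 (F6) background, and were labeled with Dendra2. The Villin promoter directs the inducible Cre to the epithelium of the intestine, and the cancer cells stand for a line described in earlier work. Cells were cultured pure, or mixed as 2 parts WT to 1 part cancer, and live cells were sorted by color on day 3 after mixing. Each of the 4 groups has 2 libraries, named here by their wells: pure WT cells are A01 and A05, mixed WT cells A02 and A06, pure cancer cells A03 and A07, and mixed cancer cells A04 and A08. The sources do not say whether the 2 libraries of a group came from separate cultures, so the p-values measure the spread between these libraries, which may be technical. The medium of all groups held N-acetylcysteine, EGF, Noggin and R-spondin1, so every level below was measured in the presence of a thiol antioxidant.

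NRF2, encoded by Nfe2l2, is a transcription factor that KEAP1 holds back and marks for degradation. When electrophiles or oxidants modify KEAP1, NRF2 accumulates, pairs with a small MAF protein and binds antioxidant response elements near its targets, a step that BACH1 opposes. Its targets make glutathione, keep thioredoxin and peroxiredoxins reduced, reduce quinones and degrade heme. The intestinal epithelium meets diet-derived and bacterial electrophiles, and its gastrointestinal glutathione peroxidase, Gpx2, is a known member of this group.

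The start regions of the genes were read to see which of them hold the letters of such an element. Windows of 300 bases, 250 before and 50 after the start, came from RefSeq on GRCm38.p6 for 8 of the 10 genes. Gclc and Hmox1 were not analysed here in this respect. The core TGACNNNGC, searched on both strands, was in a window of 4 of the 8 genes, and in 14% of all 27025 genes with a window. The AP-1 letters TGACTCA or TGAGTCA, each the reverse complement of the other, were in windows of 2 of the 8 genes and in 5.95% of all genes. The 4 windows with the core are shown because they are the ones among the 8 genes in which this letter pattern was found. Bases outside the windows were not searched, so a gene without a match may hold the core elsewhere. Capitals mark the core and the AP-1 letters, and each is written 5′ to 3′ along the gene.
Gclm: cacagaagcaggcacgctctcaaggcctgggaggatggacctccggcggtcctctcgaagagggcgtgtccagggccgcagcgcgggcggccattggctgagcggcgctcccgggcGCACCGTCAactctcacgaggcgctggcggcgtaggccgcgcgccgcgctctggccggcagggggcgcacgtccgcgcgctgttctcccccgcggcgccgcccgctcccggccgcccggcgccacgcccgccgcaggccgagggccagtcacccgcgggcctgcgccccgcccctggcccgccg
Txnrd1: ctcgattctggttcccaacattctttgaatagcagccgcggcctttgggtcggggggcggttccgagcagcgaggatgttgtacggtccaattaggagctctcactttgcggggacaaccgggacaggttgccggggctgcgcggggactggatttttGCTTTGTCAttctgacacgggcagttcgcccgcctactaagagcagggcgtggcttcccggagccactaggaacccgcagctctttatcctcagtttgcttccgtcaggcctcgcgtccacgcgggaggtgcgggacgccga
Srxn1: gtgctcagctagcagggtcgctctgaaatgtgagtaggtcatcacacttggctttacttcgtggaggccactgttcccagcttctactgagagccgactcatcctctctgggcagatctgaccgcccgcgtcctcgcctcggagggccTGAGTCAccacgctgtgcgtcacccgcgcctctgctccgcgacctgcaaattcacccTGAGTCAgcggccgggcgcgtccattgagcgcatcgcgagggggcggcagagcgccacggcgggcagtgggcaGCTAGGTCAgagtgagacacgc
Prdx1: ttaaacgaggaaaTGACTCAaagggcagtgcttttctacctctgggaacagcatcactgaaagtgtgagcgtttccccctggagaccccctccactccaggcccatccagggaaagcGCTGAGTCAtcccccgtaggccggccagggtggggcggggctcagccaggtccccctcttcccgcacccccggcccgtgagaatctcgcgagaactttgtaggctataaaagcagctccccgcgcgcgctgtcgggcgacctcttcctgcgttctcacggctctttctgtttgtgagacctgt
The Gclm window is chr3:122245307-122245606, the Txnrd1 window is chr10:82858956-82859255 and belongs to 1 of 3 Txnrd1 starts, the Srxn1 window is chr2:152105274-152105573, and the Prdx1 window is chr4:116685349-116685648, all on the plus strand. The core began 134 bases before the start in Gclm, 92 before in Txnrd1 and 133 before in Prdx1, and 28 bases after it in Srxn1, on the minus strand in each. In Prdx1 the core TGACTCAGC overlapped 1 of 2 AP-1 matches, whereas in Srxn1 the 2 AP-1 matches lay apart from the core, 102 and 45 bases before the start. A match is a description of letters and was not tested as a binding site.

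All 10 are protein-coding genes. On GRCm38 (GENCODE vM21) the glutathione synthesis genes lie at chr9:77754535-77794485 (Gclc, plus strand), chr3:122245557-122270732 (Gclm, plus) and chr3:49892526-50443614 (Slc7a11, minus). The thioredoxin genes lie at chr10:82833951-82897712 (Txnrd1), chr2:152105516-152111376 (Srxn1) and chr4:116685544-116700822 (Prdx1), all on the plus strand. Gpx1 lies at chr9:108338903-108340343 on the plus and Gpx2 at chr12:76792333-76795554 on the minus strand, Nqo1 at chr8:107388225-107403206 on the minus and Hmox1 at chr8:75093621-75100589 on the plus strand.

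RNA was measured by CEL-Seq, a method that counts transcripts at their 3' ends, and levels are given as normalized counts per 1e6 reads (CPM) after TMM scaling. Depth ran from 73109 reads in A02, a mixed WT library, to 4733121 in A04, a mixed cancer library, a 64.7-fold range, and 26.1% of tested genes had 0 reads in A02. Mitochondrial reads were 2.36% in A02 and 0.307 to 1.13% in the others. Epithelial markers (Epcam, Cdh1, keratins and others) summed to 5201 to 17290 CPM in all 8 libraries, and fibroblast and endothelial markers to at most 7.31 CPM. Immune markers summed to at most 2.27 CPM in WT and 71.8 CPM in cancer libraries, 68.8 of them Cd68 in A07. Enterocyte markers summed to 1543 to 1862 CPM in the WT libraries and to 0 to 15.8 CPM in the cancer libraries, and enteroendocrine markers to 347 to 679 and 0 to 1.57 CPM. Wnt feedback genes, which rise when Apc is lost, summed to 78.7 to 394 CPM in WT and 425 to 778 CPM in cancer libraries. Of these genes only Nkd1 (0 to 13.1 CPM in WT, 114 to 283 in cancer) and Notum (0 to 4.53, 26.2 to 98.8) did not overlap. The others overlapped, Axin2 and Lgr5 among them, and Ascl2 was higher in pure WT libraries (145.5 and 132.1 CPM) than in cancer libraries (32.9 to 88.2 CPM). Reads at the 3' end cannot show the engineered alleles themselves. In bulk RNA, fewer cells of a type and less RNA per cell cannot be told apart.

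None of the 10 genes passed the test in mixed against pure WT cells (adjusted p under 0.05, edgeR), where 0.741% of all tested genes passed. With DESeq2 2 of them passed, Gclc and Gpx1 (adjusted p = 0.0280 and 0.0497), and the same 2 passed in edgeR when only the 4 WT libraries were fitted (adjusted p = 0.0439 and 0.00867). In the fit over all 8 libraries, 5 of the 10 had an unadjusted p under 0.05 and a higher level in mixed WT cells, namely Nqo1, Gclc, Txnrd1, Slc7a11 and Gpx1, and none a lower one. Over all tested genes, 5% met this rule in the higher and 4.67% in the lower direction. In 6 of the 10, those 5 and Srxn1, both mixed WT libraries stood above both pure WT libraries, which 15% of tested genes did, and in none did both stand below, as in 28.8% of tested genes. The median log2 fold change of the 10 genes was 1.24, against -0.10 over all tested genes. The 10 genes and the lists used below were chosen with earlier results of these data known. Their comparisons with all tested genes are thus descriptions and no independent test. Other values moved between the same libraries. Paneth markers (6 of 7 in the table) summed to 2157 to 4195 CPM in pure and 918 to 1507 CPM in mixed WT cells, with Defa17 and Defa24 at 0 in A02, and Wnt feedback genes (9 of 10) to 277 to 394 and 78.7 to 149.5 CPM, with Axin2 and Lgr5 at 0 in A02. In A02 3 reads come to 39.3 CPM, whereas Defa17 and Defa24 were at 2.75 to 16.9 CPM in pure WT cells. Their 0 in A02 cannot be told from no change. Tuft markers (4 of 5) summed to 7.32 to 10.7 and 20.4 to 39.3 CPM, the 39.3 CPM of A02 all from Avil. Dclk1 and Trpm5 were at 0 in both mixed libraries but only at 0.562 to 1.83 CPM in pure WT cells. The epithelial sum was 17290 CPM in A06 and 6588 to 7013 CPM in the other 3 WT libraries. Enterocyte, goblet and enteroendocrine sums overlapped between pure and mixed WT cells. Within the enterocyte sum, genes moved in opposite directions. Alpi was at 450 and 376 CPM in pure and 800 and 918 CPM in mixed WT cells. Apoa4 was at 122 and 36.5 CPM in pure and 26.2 and 22.7 CPM in mixed WT cells, and Rbp2, Sis and Anpep were also lower in both mixed libraries. Rbp2, Sis and Anpep were only at 3.37 to 16.9 CPM in pure WT cells, below 3 reads in A02. Their lower values in A02 cannot be told from no change. The part of these shifts in the levels of the 10 genes was not tested.

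**Figure D1:**
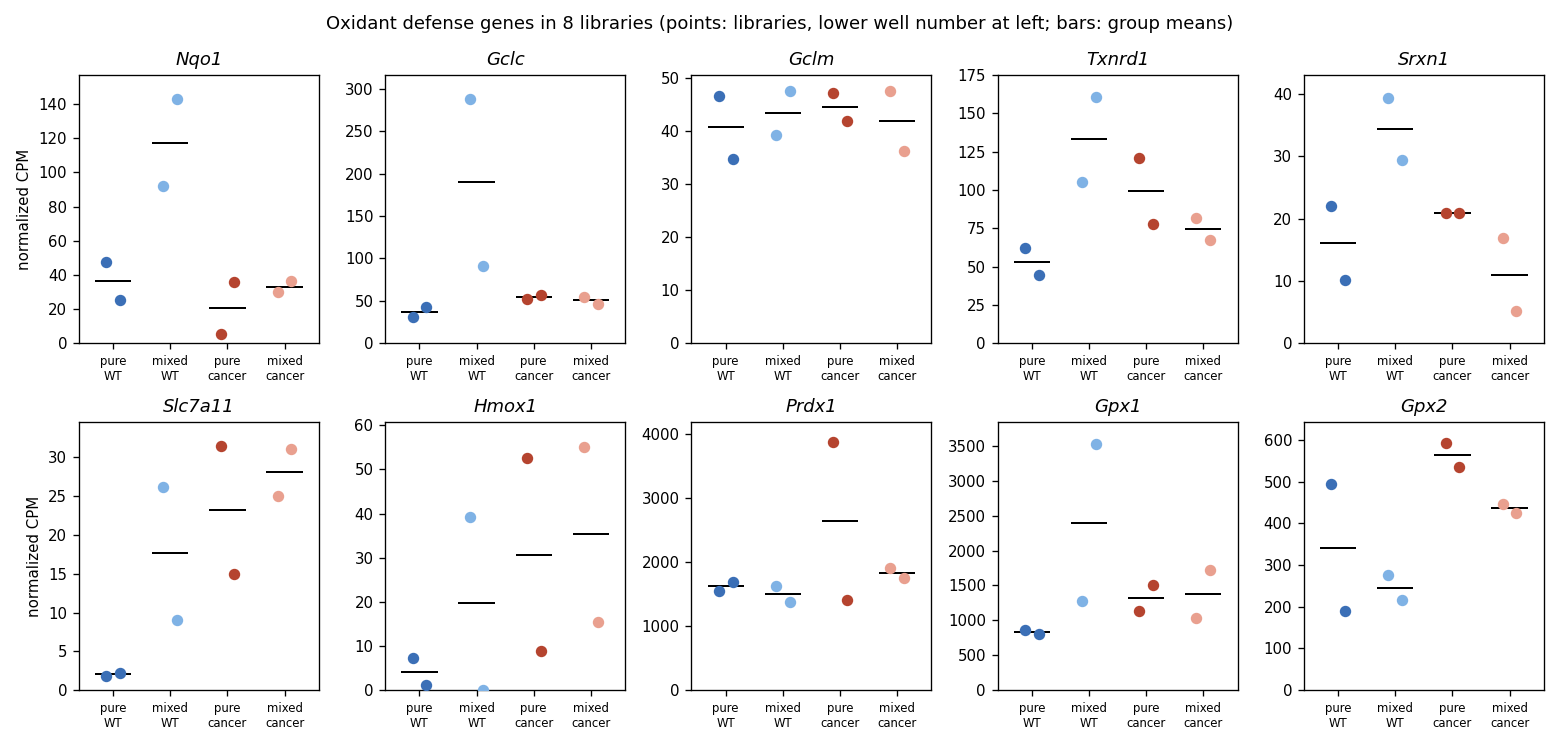
Normalized CPM of the 10 oxidant defense genes (linear axes from 0) in the 4 groups, with a point for each of the 2 libraries of a group and a bar at their mean. The mixed WT points lie above the pure WT points in 6 panels, while the points of Gclm lie between 34.9 and 47.6 CPM in all groups.

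Glutathione synthesis was covered by 3 genes. Gclc, the catalytic subunit of glutamate-cysteine ligase and the rate-limiting enzyme of glutathione synthesis, was at 31.1 and 42.7 CPM in pure WT cells (34 and 76 reads), 288 and 90.6 in mixed WT cells (22 and 40 reads), 52.5 and 56.9 in pure cancer cells (10 and 19 reads), and 54.8 and 46.7 in mixed cancer cells (280 and 9 reads). Both mixed WT libraries were above all 6 others, and they differed from each other by more than the other groups did. Its log2 fold change in mixed against pure WT cells was 2.23 ± 0.67 (SE, 95% CI 0.85 to 3.61, adjusted p = 0.148, edgeR). Gclm, the modifier subunit of the same enzyme, was at 46.7 and 34.9 CPM in pure WT (51 and 62 reads), 39.3 and 47.6 in mixed WT (3 and 21 reads), 47.2 and 41.9 in pure cancer (9 and 14 reads), and 47.6 and 36.3 in mixed cancer cells (243 and 7 reads). The 4 groups overlapped, and the change in WT cells was 0.14 ± 0.70 (95% CI -1.30 to 1.59, adjusted p = 0.979, edgeR). Slc7a11, the cystine carrier that supplies cysteine for glutathione, had few reads, at 1.83 and 2.25 CPM in pure WT (2 and 4 reads), 26.2 and 9.06 in mixed WT (2 and 4 reads), 31.5 and 14.97 in pure cancer (6 and 5 reads), and 25.1 and 31.1 in mixed cancer cells (128 and 6 reads). The pure WT libraries were the lowest of the 8, and the change in WT cells was 2.64 ± 1.27 (95% CI 0.001 to 5.27, adjusted p = 0.516, edgeR).

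The thioredoxin branch was measured by 3 genes. Txnrd1, the cytosolic thioredoxin reductase, was at 62.2 and 44.4 CPM in pure WT (68 and 79 reads), 105 and 161 in mixed WT (8 and 71 reads), 121 and 77.8 in pure cancer (23 and 26 reads), and 81.8 and 67.4 in mixed cancer cells (418 and 13 reads). Both pure WT libraries were below all 6 others, with a log2 fold change upon mixing of 1.38 ± 0.58 in WT cells (95% CI 0.17 to 2.58, adjusted p = 0.411, edgeR). Srxn1, sulfiredoxin, which restores over-oxidized peroxiredoxins, was at 22.0 and 10.1 CPM in pure WT (24 and 18 reads), 39.3 and 29.5 in mixed WT (3 and 13 reads), 20.99 and 20.95 in pure cancer (4 and 7 reads), and 16.8 and 5.19 in mixed cancer cells (86 and 1 reads). The mixed WT libraries were the highest of the 8, yet the change in WT cells was 1.04 ± 0.92 (95% CI -0.86 to 2.94, adjusted p = 0.787, edgeR). Prdx1, a peroxiredoxin that removes hydrogen peroxide, was at 1546 and 1694 CPM in pure WT (1689 and 3014 reads), 1625 and 1380 in mixed WT (124 and 609 reads), 3863 and 1413 in pure cancer (736 and 472 reads), and 1898 and 1743 in mixed cancer cells (9698 and 336 reads). The WT libraries overlapped and A03 alone stood high, and the change in WT cells was -0.11 ± 0.43 (95% CI -1.003 to 0.78, adjusted p = 0.969, edgeR). Of the 50-base windows in the last 500 bases of its GENCODE transcripts, 21.2% also occur in 3 predicted genes, so its reads are uncertain to that extent.

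The 2 glutathione peroxidases are selenoproteins that reduce hydrogen peroxide. Gpx1, the cytosolic form, was at 857 and 812 CPM in pure WT (936 and 1444 reads), 1272 and 3527 in mixed WT (97 and 1557 reads), 1128 and 1508 in pure cancer (215 and 504 reads), and 1032 and 1727 in mixed cancer cells (5272 and 333 reads). The pure WT libraries were the lowest of the 8, and A06 was the highest. The change in WT cells was 1.54 ± 0.46 (95% CI 0.59 to 2.48, adjusted p = 0.148, edgeR). Over the alternatives run the change of Gpx1 in WT cells was 0.52 to 2.04, the highest without A02. The size of this change thus depends on the libraries used, with A06 at 3527 CPM against 1272 in A02. Gpx2, the gastrointestinal form, was at 493 and 189 CPM in pure WT (539 and 337 reads), 275 and 215 in mixed WT (21 and 95 reads), 593 and 536 in pure cancer (113 and 179 reads), and 446 and 425 in mixed cancer cells (2279 and 82 reads). Its WT libraries overlapped, with a change upon mixing of -0.50 ± 0.49 (95% CI -1.52 to 0.51, adjusted p = 0.811, edgeR). A pseudogene, Gpx2-ps1, shares 20.2% of the 50-base windows at its 3' end.

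Quinone and heme handling completed the 10 genes. Nqo1, a quinone reductase widely used as a readout of NRF2, was at 47.6 and 25.3 CPM in pure WT (52 and 45 reads), 91.8 and 143 in mixed WT (7 and 63 reads), 5.25 and 35.9 in pure cancer (1 and 12 reads), and 30.1 and 36.3 in mixed cancer cells (154 and 7 reads). The mixed WT libraries were the highest of the 8, with a change of 1.75 ± 0.70 in WT cells (95% CI 0.30 to 3.21, adjusted p = 0.372, edgeR). Hmox1, heme oxygenase 1, was at 7.32 and 1.12 CPM in pure WT (8 and 2 reads), 39.3 and 0 in mixed WT (3 and 0 reads), 52.5 and 8.98 in pure cancer (10 and 3 reads), and 55.2 and 15.6 in mixed cancer cells (282 and 3 reads). With 3 reads in mixed WT against 10 in pure WT cells, the ratio of pooled levels was 1.66 with a 95% counting interval of 0.294 to 6.46, and the fitted change was 1.10 ± 1.70 (adjusted p = 0.902, edgeR). The interval takes reads as independent, but they include amplification copies, so it is too narrow. The 3 reads of A02 held 1 barcode. No change of Hmox1 in WT cells was detectable at this depth.

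**Figure D2:**
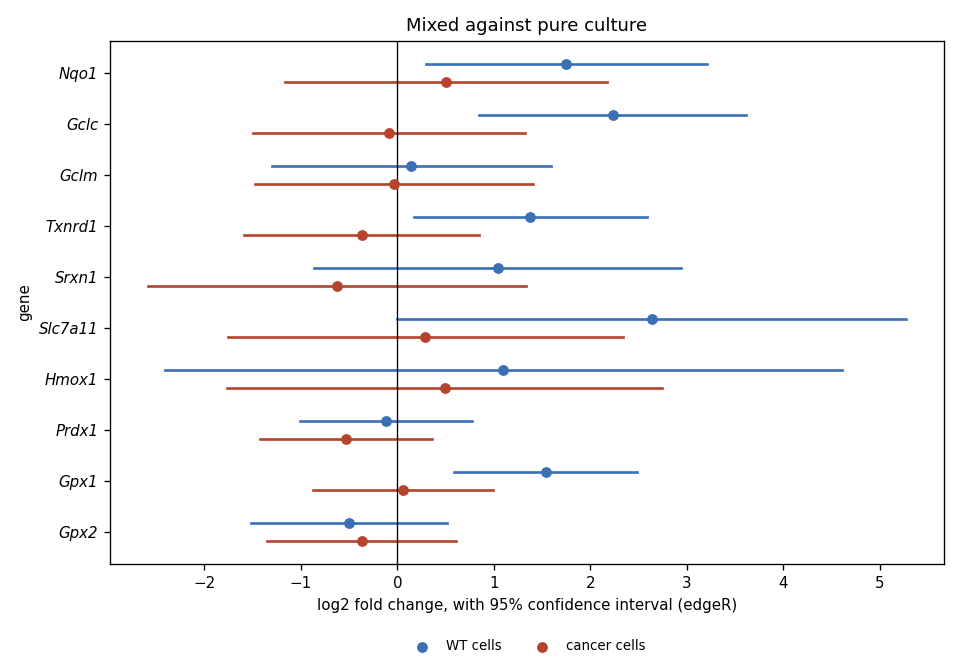
Log2 fold change of each oxidant defense gene in mixed against pure culture, with 95% confidence intervals from the edgeR fit over 8 libraries, for WT cells and for cancer cells. The WT points of Nqo1, Gclc, Txnrd1, Slc7a11 and Gpx1 have intervals above 0, that of Slc7a11 by 0.001, and every interval of the cancer cells includes 0.

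The count of 5 genes with higher levels in mixed WT cells rested on single libraries. Leaving out 1 library at a time gave 1 to 4 genes, with 1 without A06, 2 without A05, and 3 without A01 or without A02. Of the 6 genes without overlap, Nqo1, Txnrd1, Srxn1 and Slc7a11 had 2 to 8 reads each in A02.

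Cancer cells gave the second comparison of mixed with pure culture. None of the 10 genes passed the test in mixed against pure cancer cells (edgeR), and none had an unadjusted p under 0.05, where 0% and 1.31% of all tested genes did. DESeq2 called 0 of the 10 as well. The log2 fold changes ran from -0.62 ± 0.95 for Srxn1 to 0.50 ± 0.81 for Nqo1, with a median of -0.06 against 0.03 over all tested genes. Both mixed libraries lay below both pure ones for 2 of the 10 genes, Srxn1 and Gpx2, as for 10.8% of tested genes, and above for none, as for 13.8%. The confidence intervals were wide for the genes with few reads, from -2.58 to 1.34 for Srxn1 and from -1.17 to 2.17 for Nqo1.

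The change upon mixing was then compared between both cell types in a single test of the difference. None of the 10 genes passed it with edgeR or DESeq2, against 0.076% of all tested genes. Still, 3 of them had an unadjusted p under 0.05 with a larger change in WT cells, where 3.34% of tested genes did. These 3 genes were Gclc, with a difference of 2.32 ± 0.95 on the log2 scale (adjusted p = 0.573, edgeR), Txnrd1, with 1.75 ± 0.83 (adjusted p = 0.677, edgeR), and Gpx1, with 1.48 ± 0.64 (adjusted p = 0.614, edgeR). A larger change of these genes in WT than in cancer cells was thus not established by the test.

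Cancer and WT cells were next compared in pure culture, in mixed culture and over the mean of both, 3 comparisons that share libraries. None of the 10 genes passed in any of them with edgeR or DESeq2, although in edgeR 9.95%, 6.42% and 14.2% of all tested genes did. No gene of the 10 had all 4 cancer libraries above all 4 WT libraries, as 8.24% of tested genes had, or all below, as 8.11% had. In pure culture 2 of the 10 genes, Slc7a11 and Hmox1, had an unadjusted p under 0.05 and were higher in cancer cells, against 10.2% of tested genes. In mixed culture 2 genes, Nqo1 and Gclc, had such a p and were lower in cancer cells, against 8.47% of tested genes. Over the mean, 3 genes were higher (Slc7a11, Hmox1 and Gpx2) and 1 lower (Nqo1) by this rule, against 12.8% and 11.9% of tested genes. Each gene is 10% of the set, so these counts stood within 2 genes of what the background shares give.

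Slc7a11 had a log2 fold change of 3.36 ± 1.13 in pure cancer against pure WT cells (adjusted p = 0.0632, edgeR) and of 2.19 ± 0.79 over the mean (adjusted p = 0.0703, edgeR). It passed in both without A02, with adjusted p of 0.0424 and 0.0450, and in pure culture with only the 4 libraries compared (adjusted p = 0.0371, edgeR). Over the alternatives in which it was tested, 9 in pure culture and 8 over the mean, the adjusted p was at most 0.277 and 0.185. It had too few reads to be tested with barcode or transcript counts, at a minimum count of 50, or without A01, A04, A05 or A06. In the fits in which it passed, it met the minimum count only through cancer libraries, where it is high. The pure WT libraries held 2 and 4 reads of it, so these fits add no independent support. Hmox1 differed by 2.83 ± 1.24 in pure culture (adjusted p = 0.185, edgeR) and by 2.53 ± 0.95 over the mean (adjusted p = 0.0825, edgeR). In mixed culture its pooled level was 9.27 times as high in cancer as in WT cells by 285 against 3 reads, with a 95% counting interval of 3.14 to 45.2, but 282 of the 285 reads were in A04. Those 282 reads held 91 barcodes, so this interval is too narrow as well. The means of the 2 libraries were 35.4 CPM in mixed cancer and 19.7 CPM in mixed WT cells, and the fitted change was 2.23 ± 1.46 (95% CI -0.80 to 5.26, adjusted p = 0.505, edgeR), with 0.08 to 8.71 over the alternatives run. For Hmox1 the change over the mean was 1.44 to 5.75 over the alternatives run, the highest without A02. In pure culture it was 1.16 to 4.49. In mixed culture the 8.71 came without A02, where the WT cells then had 0 reads of it. Without A02 the WT libraries held 8, 2 and 0 reads of Hmox1. It then met the minimum count only through cancer libraries, where it is high, so that fit adds no independent support. Nqo1 was lower in cancer cells by a log2 fold change of -1.92 ± 0.74 in mixed culture (adjusted p = 0.155, edgeR) and -1.29 ± 0.53 over the mean (adjusted p = 0.124, edgeR). Over the alternatives run the latter was -2.39 to -0.98. The -2.39 came without A07, where A03 with 1 read of Nqo1 was the only pure cancer library. Gclc differed by -1.75 ± 0.68 in mixed culture (adjusted p = 0.154, edgeR), with -2.42 to -0.65 over the alternatives run. The -2.42 came without A06, where A02 with 22 reads and 6 barcodes of Gclc was the only mixed WT library. Gpx2 differed by 0.79 ± 0.34 over the mean (adjusted p = 0.143, edgeR).

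**Figure D3:**
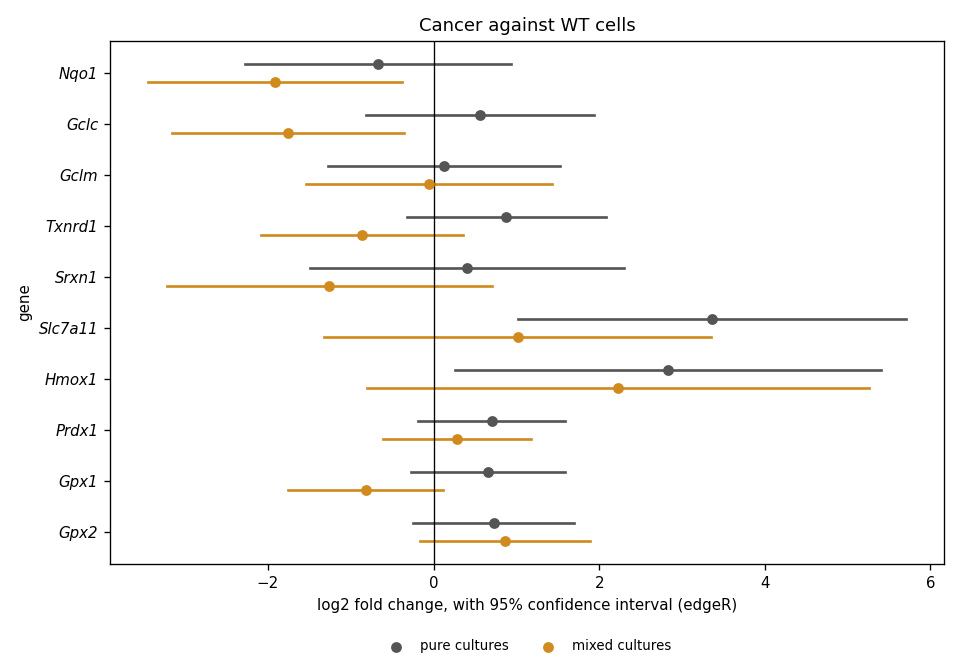
Log2 fold change of each oxidant defense gene in cancer against WT cells, with 95% confidence intervals from the edgeR fit over 8 libraries, for pure and for mixed cultures. The pure culture points of Slc7a11 at 3.36 and Hmox1 at 2.83 and the mixed culture points of Nqo1 at -1.92 and Gclc at -1.75 have intervals that leave out 0.

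The other genes of the pathway were drawn from 5 lists. Among its regulators, 9 of 15 listed genes were tested. Nfe2l2 itself was at 113.5 and 94.99 CPM in pure WT, 210 and 127 in mixed WT, 136.5 and 50.9 in pure cancer, and 80.0 and 67.4 in mixed cancer cells. Keap1 was at 89.7 and 41.0 CPM in pure WT, 170 and 90.6 in mixed WT, 52.5 and 105 in pure cancer, and 85.9 and 62.3 in mixed cancer cells. Both had their mixed WT libraries above their pure WT ones, with changes of 0.63 ± 0.58 for Nfe2l2 (adjusted p = 0.796, edgeR) and 0.91 ± 0.64 for Keap1 (adjusted p = 0.717, edgeR), and neither passed in any of the 6 comparisons. NRF2 is governed mostly through its protein, which these data do not measure. Bach1 was too low to be tested, with 0 to 16 reads in a library. Maff, a small MAF partner of NRF2, was the regulator that rose in cancer cells, at 227 to 377 CPM in the 4 cancer and 23.0 to 149.5 CPM in the 4 WT libraries, with a log2 fold change of 1.92 ± 0.42 over the mean (adjusted p = 0.00168, edgeR). It passed in pure culture (2.59 ± 0.59, adjusted p = 0.00425, edgeR) but not in mixed culture (1.25 ± 0.59, adjusted p = 0.288, edgeR).

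Of 23 tested genes on a list of 29 for glutathione synthesis, recycling and transfer, 11 fell and 1 rose in cancer cells over the mean, where 7.37% of all tested genes fell and 6.8% rose. In pure culture 8 of the 23 fell, against 4.84% of all tested genes, and in mixed culture 10 fell, against 4.41%, a count that was 6 without A06. The median log2 fold change of the list was -0.86 over the mean, against 0.04 over all tested genes, and it was -0.91 in pure culture also when genes without reads were set at their bounds. Gstt1, Gstt2 and Gstt3 are among the genes that fell in each of these comparisons. They met the minimum count only through WT libraries, where they are high. Their calls could thus hardly go the other way and add no independent support to these counts. None of the 23 passed in mixed against pure cells of either type.

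The 11 genes that fell include 10 transferases, whereas the 6 other transferases tested, Gstm4, Gstm5, Gstp1, Gsto1, Gstz1 and Mgst2, had an adjusted p of 0.420 to 0.768 (edgeR). Of those that fell, 8 are cytosolic glutathione transferases, which couple glutathione to electrophiles. Gstm3 was at 157 to 822 CPM in the WT and 10.5 to 35.9 CPM in the cancer libraries, a change of -4.08 ± 0.48 on the log2 scale (adjusted p = 1.13e-06, edgeR). Gstm2 changed by -2.79 ± 0.40, Gstm1 by -2.31 ± 0.48, Gsta3 by -2.02 ± 0.39 and Gsta4 by -1.27 ± 0.30, with adjusted p of 1.84e-05, 0.00118, 0.000542 and 0.00342 (edgeR). Gsta3 and Gsta4 passed in mixed but not in pure culture, where they changed by -0.91 and -0.61 (adjusted p = 0.367 and 0.452, edgeR). Upon mixing they changed by 1.41 and 0.99 in WT cells (adjusted p = 0.298 and 0.391, edgeR). Over the mean Gsta4 was not called with barcode counts (adjusted p = 0.607, edgeR), nor Gstm1 with DESeq2 (adjusted p = 0.0516). The 3 genes of the theta class were close to 0 in cancer cells. Gstt2 had 519 and 104 reads in pure and mixed WT cells and 0 and 2 in pure and mixed cancer cells, which made it at least 31.6-fold lower in pure cancer cells and 533-fold lower in mixed cancer cells, with a 95% counting interval of 144 to 4457. Gstt3 had 408 and 0 reads in pure WT and pure cancer cells, at least 24.9-fold lower, and 67 reads in mixed cancer cells, all of them in A04. Gstt1 had 332 reads in pure WT cells and 1 in pure cancer cells, a 60.7-fold lower level with an interval of 10.8 to 2403. The floor behind these bounds is 3 reads over the pooled libraries of a group, and intervals and floor cover counting error only. They take reads as independent, though reads include amplification copies, so the intervals are too narrow. Reads of Gstm1 and Gstt3 are uncertain, since 23.0% and 26.8% of the 50-base windows at their 3' ends occur in other genes.

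The membrane-bound transferases Mgst1 and Mgst3 fell as well, by log2 fold changes of -2.07 ± 0.37 (adjusted p = 0.000234, edgeR) and -2.37 ± 0.34 (adjusted p = 1.50e-05, edgeR). Glrx, a glutaredoxin that reverses the coupling of glutathione to proteins, changed by -1.32 ± 0.34 (adjusted p = 0.00903, edgeR), and its adjusted p was 0.127 without A05 and 0.0921 without A06. The gene of the list that rose was Slc3a2, the heavy chain that carries the Slc7a11 cystine transporter to the membrane. With barcode counts Slc3a2 did not pass over the mean (adjusted p = 0.129, edgeR). It was at 268 to 560 CPM in the cancer and 131 to 229 CPM in the WT libraries, a change of 1.37 ± 0.35 (adjusted p = 0.00684, edgeR, and 0.0697 without A07). Enterocyte and enteroendocrine markers were also lower in the cancer libraries, as given above. Goblet markers (7 of 8 in the table) summed to 2910 to 3956 CPM in WT and 457 to 1123 CPM in cancer libraries, where Spink4 alone had 449 to 1102 CPM and Muc2 at most 0.196 CPM. Paneth markers (6 of 7) summed to 918 to 4195 and 520 to 882 CPM, with 478 to 861 CPM of Mmp7 in the cancer libraries. Tuft markers (4 of 5) summed to 7.32 to 39.3 and 42.0 to 114 CPM, in the cancer libraries all from Avil, with Dclk1, Trpm5 and Pou2f3 at 0. The part of these cell types in the lower transferase levels was not tested.

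**Figure D4:**
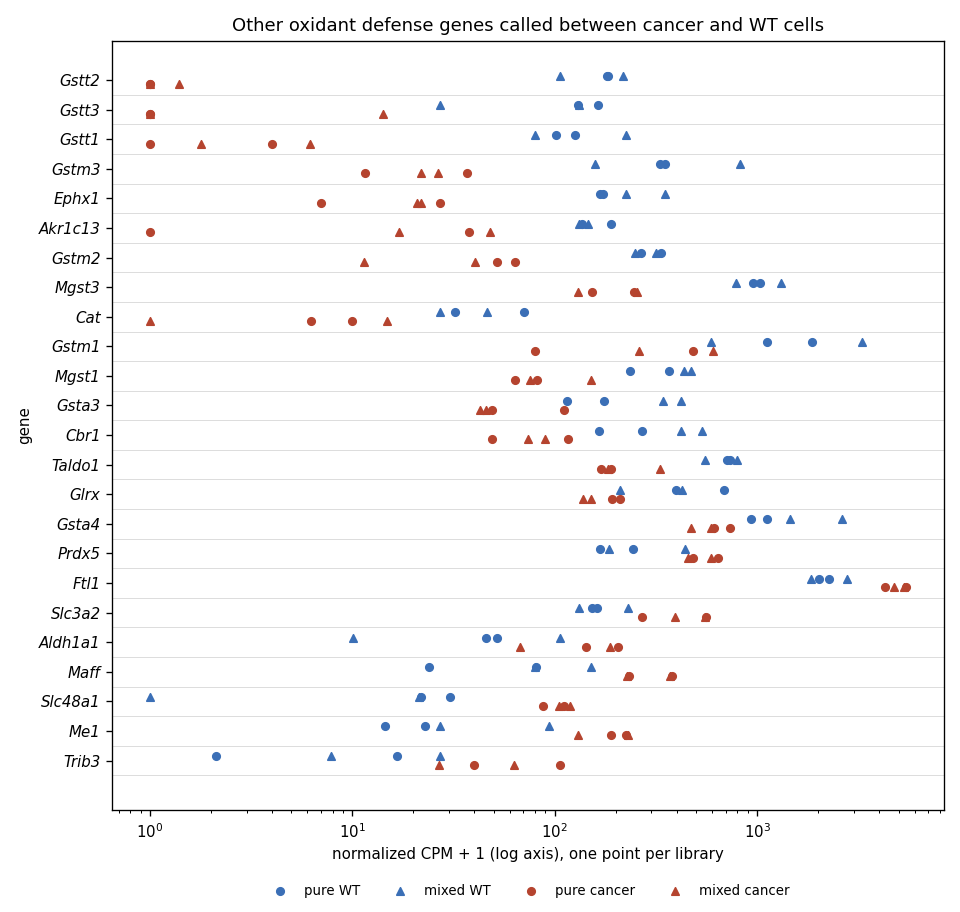
Normalized CPM plus 1 (log axis) of the 24 listed pathway genes called between cancer and WT cells over the mean of pure and mixed culture, ordered by their log2 fold change, with a point for each library. Circles are pure and triangles mixed cultures, and the glutathione transferases Gstt2, Gstt3, Gstt1 and Gstm3 hold the upper rows with cancer libraries at 0 to 35.9 CPM.

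Of 16 tested genes for peroxide and superoxide removal, 1 fell and 1 rose in cancer cells over the mean, near the 7.37% and 6.8% of all tested genes. The gene that fell, Cat, met the minimum count only through WT libraries, where it is high. Cat, catalase, was at 26.2 to 69.1 CPM in WT and 0 to 13.9 CPM in cancer libraries, a change of -2.31 ± 0.70 (adjusted p = 0.0251, edgeR, and 0.280 without A05 or 0.195 without A06). Prdx5, a peroxiredoxin of mitochondria and peroxisomes, changed by 1.06 ± 0.34 (adjusted p = 0.0342, edgeR). Prdx5 did not pass with barcode counts (log2 fold change 0.75, adjusted p = 0.342, edgeR) or without a filter on low counts (adjusted p = 0.0578, edgeR). Its call was also lost without A02, A03, A05 or A08, at changes of 0.82 to 1.03.

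Of 11 tested genes for NADPH supply, which feeds the reductases, 1 rose and 1 fell, against the same 6.8% and 7.37%. Me1, malic enzyme 1, was at 130 to 229 CPM in cancer and 13.5 to 92.9 CPM in WT libraries, a change of 2.47 ± 0.43 (adjusted p = 0.000165, edgeR). Taldo1, a transaldolase of the pentose phosphate pathway, was at 168 to 331 CPM in cancer and 551 to 793 CPM in WT libraries, a change of -1.69 ± 0.32 (adjusted p = 0.000515, edgeR).

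Of 17 tested genes for heme and quinone handling, 4 rose and 3 fell in cancer cells over the mean, against 6.8% and 7.37% of all tested genes. Slc48a1 and Trib3 would not have met the minimum count by their WT libraries alone, nor Ephx1 by its cancer libraries alone. The genes that fell reduce carbonyls or open epoxides. Ephx1, an epoxide hydrolase, changed by -3.71 ± 0.47 (adjusted p = 2.78e-06, edgeR), Akr1c13, an aldo-keto reductase, by -2.92 ± 0.61 (adjusted p = 0.00118, edgeR), and Cbr1, a carbonyl reductase, by -2.00 ± 0.38 (adjusted p = 0.000432, edgeR). Cbr1 passed in mixed but not in pure culture. Slc48a1, a heme transporter, rose by 2.40 ± 0.52 (adjusted p = 0.00168, edgeR), and Ftl1, the ferritin light chain, by 1.15 ± 0.27 (adjusted p = 0.00338, edgeR), although 78.2% of the windows at its 3' end occur in 15 other genes, the pseudogenes Ftl1-ps1, Ftl2-ps and Ftl1-ps2 among them. Ftl1 did not pass over the mean with barcode or transcript counts (adjusted p = 0.698 and 0.528, edgeR). Trib3, a pseudokinase of the stress response, changed by 2.61 ± 0.76 (adjusted p = 0.0198, edgeR, and 0.136 without A04, 0.0751 without A05 or 0.104 without A06), and Aldh1a1, a retinal dehydrogenase, by 1.77 ± 0.56 (adjusted p = 0.0330, edgeR, and 0.174 without A06 or 0.101 without A08). Blvrb and Cbr3, a biliverdin reductase and a second carbonyl reductase, passed only in mixed culture among the 3 comparisons, where they were lower in cancer cells by -1.93 ± 0.58 (adjusted p = 0.0448, edgeR) and -2.66 ± 0.67 (adjusted p = 0.0147, edgeR). Blvrb did not pass without A01, A04, A05, A06 or A08 (adjusted p of 0.0675 to 0.373), nor Cbr3 without A04 or A06 (0.0618 and 0.222). None of the 5 lists had a gene called in mixed against pure cells of either type or in the difference of both changes.

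For the 6 of the 10 genes with at least 50 reads on average, the gene whose log2 CPM followed them most closely over the 8 libraries was sought among 2744 others, and it lay outside the set in each case. Nqo1, Srxn1, Slc7a11 and Hmox1 had fewer reads and were left out of this search. Gclc went with Mrpl45 (Pearson r = 0.919), Gclm with Clic1 (r = 0.938), Txnrd1 with Rnf186 (r = 0.964), Prdx1 with Chchd1 (r = 0.944), Gpx1 with Cyba (r = 0.938) and Gpx2 with Ntmt1 (r = 0.899). The libraries share groups and differ in depth, and the highest of 2744 values is high by selection, so these are descriptions of 8 libraries. By the same measure the pairs among all 10 genes ran from r = -0.854 for Nqo1 and Prdx1 to r = 0.721 for Slc7a11 and Hmox1, genes with few reads among them, and Gclc and Gclm, whose products form 1 enzyme, had r = -0.0872.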

How the data were processed

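Bulk RNA from sorted cells was sequenced by CEL-Seq. The authors aligned reads to mm10 transcripts with BWA, discarded reads that map equally well to several places, and counted reads per gene with featureCounts. They deposited these read counts without normalization, with amplification copies included. They also deposited barcode counts, the distinct 4-base molecule barcodes per gene, which saturate at high levels, and estimated counts of transcripts, which the authors derived from the barcodes. The estimated counts were rounded to whole numbers here. A deposited table of the authors' own WT comparison was not used.

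Read counts of 13420 genes were analysed with edgeR 4.0.16 in R 4.3.3, after 2 entries that are not mouse genes (1 read) were left out. The filterByExpr step kept genes at a minimum of 10 counts, which were normalized with TMM factors and fitted by quasi-likelihood over all 8 libraries, with Benjamini-Hochberg adjustment over the 5264 genes tested in each of 6 comparisons. Standard errors were taken as the size of the log2 change over the square root of F. Samples were grouped by their labels, which pair no libraries and name no batch. The script was tested on simulated data. Named genes are the 10 members, every listed gene called in any comparison, Nfe2l2, Keap1 and Bach1, and the gene most alike to each member with a mean of at least 50 reads (log2 CPM, prior count 2). The members and lists were chosen with earlier results of these data known. Alternatives were barcode or transcript counts, other scaling factors, other filters, a fit restricted to the groups compared, the omission of each library, and DESeq2 1.42.0. Positions and 3' windows are from GENCODE vM21 on GRCm38, and start regions from RefSeq. An engineered allele of the cancer cells is not reported here.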

Additional observations from a re-analysis of the deposited data

How the results depend on the processing

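The count of 0 members called was not stable. In mixed against pure WT cells 2 members, Gclc and Gpx1, passed with DESeq2 (adjusted p = 0.0280 and 0.0497) and 2 with only the libraries compared (edgeR, adjusted p = 0.0439 and 0.00867), and 0 to 1 when a library was left out. In pure cancer against pure WT cells 1 passed with only the libraries compared (Slc7a11), and 0 to 1 without a library. In mixed cancer against mixed WT cells 1 passed with barcode and 1 with transcript counts (Nqo1), and 0 to 1 without a library. Over the mean of both, 1 passed with barcode counts, 1 with transcript counts and 1 without a filter (Hmox1), and 0 to 2 without a library. In mixed against pure cancer cells and in the difference of both changes none passed under any alternative run. The count of members higher at an unadjusted p in mixed WT cells, an alternative set chosen after seeing the data, was 5 as reported, 3 with barcode counts, 3 without a filter, 1 of 3 members tested at a minimum count of 50, and 1 to 4 without a library. The count of members without overlap was 6 with the other scaling factors and 7 with barcode or transcript counts. The member added with barcode counts was Prdx1, whose WT libraries overlapped by reads. In pure WT cells its barcodes, 243 and 250, were near the most that 4 bases allow. In mixed WT cells they came to 75 and 199. Transcript counts are derived from the barcodes, so neither count of 7 adds independent support. Leaving out a library relaxes the rule of no overlap and cannot lower the count. The listed glutathione genes called in pure culture numbered 8 as reported, 5 with barcode counts, and 6 to 10 without a library, and in mixed culture 6 to 10 without a library.

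Some log2 fold changes that had not passed the test changed sign. In WT cells Gclm gave -0.254 with barcode counts, -0.129 with transcript counts, -0.00897 without a filter and -0.135 to 0.360 without a library, and Hmox1 gave -0.371, -0.163 and, without a library, -5.39 to 3.23. Prdx1 gave 1.68 with barcode counts, 0.650 with transcript counts, 0.0239 with median-of-ratios factors, 0.0232 at a minimum count of 50, 0.0239 with DESeq2, and -0.274 to 0.00155 without a library. Its barcodes came to 243 and 250 in pure WT cells, near the most that 4 bases allow. Gpx2 gave 0.169 with barcode counts and -0.991 to 0.361 without a library. Nqo1 in cancer cells gave -0.0148 with transcript counts and -0.152 to 2.66 without a library. The cause of these changes was not tested. Of the 24 listed genes called over the mean, 15 were called under every alternative in which they were tested. With median-of-ratios factors 73 of 80 member levels stayed within 1 SD of their group, and the levels in A02 rose by 11.6%. Depth limits Nqo1, Gclm, Srxn1, Slc7a11 and Hmox1, each with at most 3 reads in 1 or more libraries.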
